A study of Mus musculus with 6 samples.

Results

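The 9 genes described here encode proteases, a receptor, protease inhibitors and the starting factor of blood clotting: Plau, Plat, Plaur, Serpine2, Serpinf1, Serpinb2, F3, Tfpi and Tfpi2. They were taken by gene symbol, as a list drawn up with earlier results of these data known, from a table of 41126 genes measured by RNA-seq in mouse dermal fibroblasts, the cells that build the collagen matrix of the skin. All 9 were in the table and passed the filter on low counts, among 15462 genes that were tested. The study asked how expression changes when β-catenin, the protein that carries the canonical Wnt signal into the nucleus, is made resistant to degradation.

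Fibroblasts were cultured from ventral skin of mice of a mixed CD1 and C57Bl6 background at postnatal day 4, with the cells of each animal kept apart. The 3 GOF (gain of function) cultures are labelled AdCre with the genotype Ctnnb1 delta ex3/+, in which Cre recombinase delivered by adenovirus removes exon 3 of 1 Ctnnb1 allele, and the 3 Control cultures are labelled AdGFP and +/+. The study's methods describe controls that carried the same transgene and received a virus for green fluorescent protein, so an effect of the delivered protein, Cre or the fluorescent protein, and an effect of β-catenin cannot be told apart. The treatment entry of the labels, a multiplicity of infection of 366 to 500 over 6 h, names the Cre virus for every culture. The study's methods instead give 366 to 500 for the Cre virus and 366 for the virus for green fluorescent protein. Virus dose may therefore also have differed between the groups, and an effect of it cannot be told apart from the others. Of the 4 animals in the labels, 2 supplied cells to each group, one for Control replicate 0 and GOF replicate 2 and the other for Control replicate 2 and GOF replicate 0. Cells of 1 animal share an inherited genotype, so in these 2 animals the +/+ label cannot mark an inherited difference from the GOF culture.

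Plasminogen is a secreted zymogen that 2 proteases, the urokinase-type activator (Plau) and the tissue-type activator (Plat), turn into plasmin, which degrades fibrin and other matrix proteins. Serpins are suicide inhibitors that trap such proteases, and a membrane-anchored receptor (Plaur) holds urokinase at the cell surface. Clotting starts when tissue factor (F3), a membrane protein of fibroblasts and other cells outside the vessel lumen, binds factor VII. Tissue factor pathway inhibitor (Tfpi) inhibits the complex that they form.

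The libraries held 35980831 to 42834467 fragments. Ctnnb1, counted over the whole gene, had 267 ± 16.3 FPKM (fragments scaled by transcript length and library size) in Control and 263 ± 28.8 FPKM in GOF libraries (SD, n = 3 each), so the excised exon was not read from these values, whereas Axin2, a feedback target of β-catenin, rose with a log2 fold change of 6.98 (edgeR, adjusted p = 4.95e-05). All 10 fibroblast markers averaged over 1 FPKM, and their summed level was 4445 to 5310 FPKM in Control and 4032 to 4253 in GOF libraries. Of these, 3 were called lower, Col1a2 (from 867 to 387 FPKM), Dcn (1058 to 330) and Fn1 (262 to 109), while Vim rose from 798 to 1339 FPKM (edgeR adjusted p = 0.0280). Endothelial cells, which make Plat, Tfpi and thrombomodulin, were represented by 7 markers that summed to 4.43 to 4.61 FPKM in Control and 2.73 to 6.66 in GOF libraries, with Pecam1 at a mean of 0.144 and 0.298. Kdr was called higher, from 0.681 to 2.34 FPKM, and Tek lower, from 1.94 to 0.425. Macrophages, which make Plau and Plaur, were represented by 7 markers that summed to 10.8 to 19.6 and 8.76 to 25.2 FPKM. Csf1r alone of these was called higher, from 1.32 to 3.89 FPKM, and Ptprc, the pan-leukocyte marker, was under 0.1 FPKM in every library. The 5 platelet markers summed to 3.23 to 4.02 FPKM in Control and 2.65 to 3.82 in GOF libraries, and the 7 keratinocyte markers to at most 0.501. Of the skeletal muscle list, Acta1 alone was called higher, from 24.9 to 150 FPKM, while Pax7 had no fragment and Myod1 was under 0.1 FPKM. The part of these cell types in the results was not tested. In bulk RNA, fewer cells of a type and less RNA per cell cannot be told apart.

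Of the 9 genes, the receptor Plaur rose 3.60-fold and tissue factor F3 fell 2.84-fold in GOF libraries, Plau rose 1.81-fold, and Serpine2 fell 1.71-fold. These 4 had an adjusted p under 0.05 from edgeR's quasi-likelihood test over all 15462 genes, the test behind every "rose" and "fell" here, beside 21.2% of all genes tested. The 2 that rose stood beside 11.1% of all genes and the 2 that fell beside 10.2%. A gene was called where its fold change was also over 2, which 2 of the 9 were, 1 higher and 1 lower, beside 12.3% of all genes tested (6.69% higher and 5.64% lower). Control and GOF libraries were separate in FPKM for 6 of the 9, beside 39.5% of all genes tested, 2 of them higher in GOF libraries (20.3% of all genes) and 4 lower (19.2%). The median log2 fold change of the 9 was -0.09 and that of all genes tested was -0.02. Each of these 6 reached p = 0.1 in a two-sided exact permutation test of the FPKM, the smallest that 3 against 3 libraries allow.

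**Figure D1:**
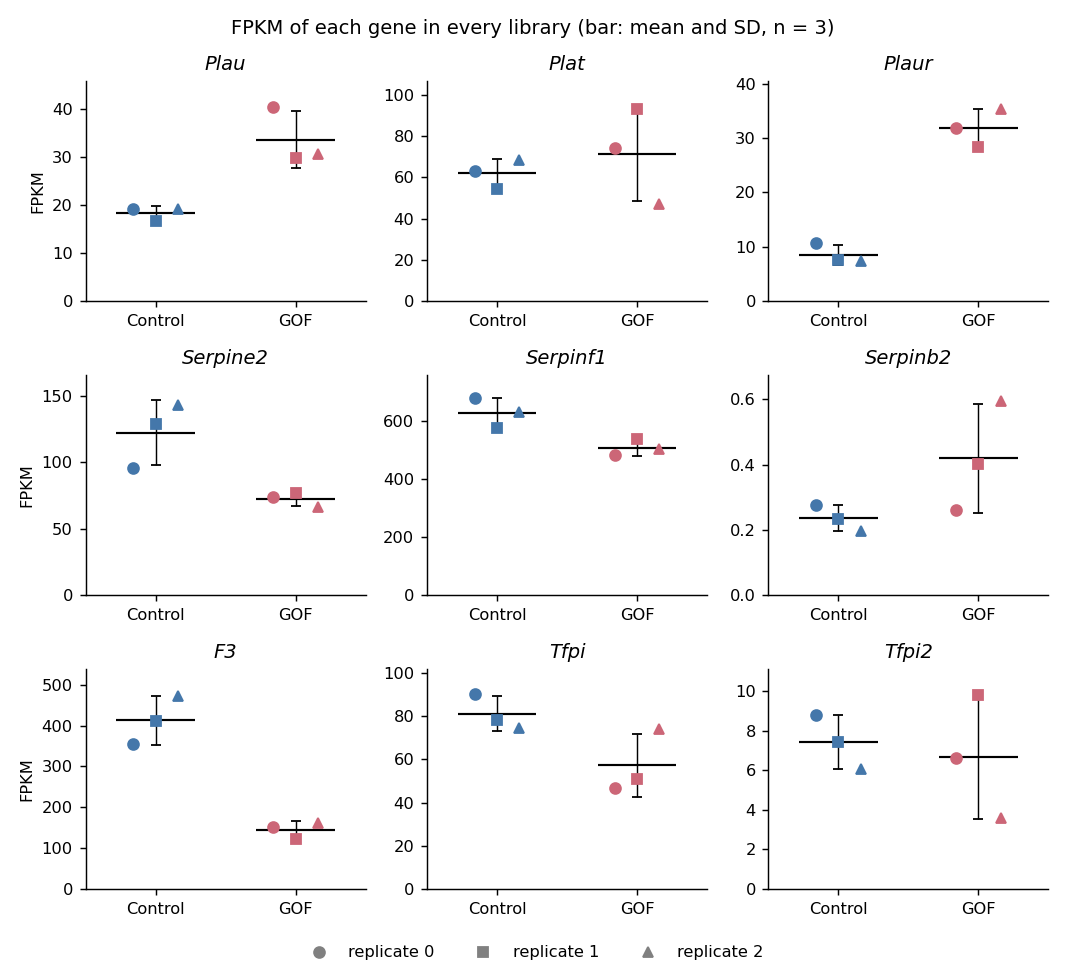
FPKM of the 9 genes (linear axes from 0) in each of the 3 Control (blue) and 3 GOF (red) libraries, with 1 symbol per replicate number, a bar at the group mean and whiskers for 1 SD (n = 3). All GOF points lie above all Control points for Plau and Plaur and below them for Serpine2, Serpinf1, F3 and Tfpi, whereas the groups overlap for Plat, Serpinb2 and Tfpi2.

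The 2 genes that were called, Plaur and F3, are shown with the 150 bases before their RefSeq start site on GRCm38.p6 (mm10), because these stretches hold the sequence words compared among the 9 genes. Both lie on the + strand, Plaur at chr7:24462333-24462482 and F3 at chr3:121723387-121723536, outside any annotated untranslated region, although the first bases of the F3 stretch overlap an exon of the antisense gene Gm43823. Capitals mark the AP-1 word TGANTCA (the letters bound by Fos and Jun dimers) and the GC box GGGCGG (bound by Sp factors) on either strand.
Plaur: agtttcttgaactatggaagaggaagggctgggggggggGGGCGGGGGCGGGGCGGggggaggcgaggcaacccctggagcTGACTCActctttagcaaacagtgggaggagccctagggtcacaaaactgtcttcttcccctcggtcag
F3: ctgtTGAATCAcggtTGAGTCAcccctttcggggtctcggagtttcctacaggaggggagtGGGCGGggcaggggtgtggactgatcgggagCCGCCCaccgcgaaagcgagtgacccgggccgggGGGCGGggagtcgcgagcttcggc

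Counted from the start site, the AP-1 word of Plaur began at -69 and its 3 GC boxes at -111, -105 and -100, the last pair sharing 1 base. F3 held AP-1 words at -146 and -135 and GC boxes at -89, -58 and -24. RefSeq windows of 250 bases were read for 7 of the 9 genes, 11 windows in all. The AP-1 word was in 5 of the 11, those of Plaur and F3, both of Serpinb2 and 1 of Tfpi2, beside 6.75% of 32851 windows of all genes. The GC box was in 6 of 11, beside 32.7%. A Tcf/Lef word, searched as CTTTGAA, then as CTTTGAT, and also as CTTTGTA and then CTTTGTT, read by the DNA partners of β-catenin, was in 4 of 11, both of Serpinb2 and 2 of Tfpi2, beside 14.8%. No Tcf/Lef word stood in the windows of Plaur or F3. Windows of 1 gene overlap in part and share sequence, and the words were picked with the values of the genes known, so these counts are a description.

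Plau (ENSMUSG00000021822.2; chromosome 14, 20836660 to 20843385 in GENCODE M21 on GRCm38), the urokinase-type activator, had 19.1, 16.6 and 19.2 FPKM in Control replicates 0, 1 and 2 and 40.4, 29.8 and 30.6 FPKM in GOF replicates 0, 1 and 2. The Control libraries lay close together, GOF replicate 0 stood above the other GOF libraries, and the groups did not overlap. Mean FPKM was 18.3 ± 1.46 in Control and 33.6 ± 5.90 in GOF libraries (SD, n = 3 each), and edgeR gave a log2 fold change of 0.85 with a standard error of 0.15 (adjusted p = 0.00703). The gene passed the test in all 16 alternative settings (largest adjusted p = 0.0401), and its fold change stayed under 2 in each.

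Plat (ENSMUSG00000031538.5; chromosome 8, 22757727 to 22782844), the tissue-type activator, stood at 63.0, 54.5 and 68.4 FPKM in Control replicates 0, 1 and 2 and at 74.1, 93.1 and 47.1 FPKM in GOF replicates 0, 1 and 2. The GOF libraries spread on both sides of the Control libraries. Its log2 fold change of 0.19 (standard error 0.24, edgeR adjusted p = 0.615) did not pass the test, and the permutation test gave an exact p of 0.6. The sign rested on 1 library: without GOF replicate 1, the only GOF culture here from an animal with no Control culture, the log2 fold change was -0.06, and it was -0.16 (edgeR adjusted p = 0.565) with the animal as a block. Plat was the more abundant of the activators, and the ratio of Plau to Plat in FPKM was 0.303, 0.305 and 0.280 in Control replicates 0, 1 and 2 and 0.545, 0.320 and 0.649 in GOF replicates 0, 1 and 2. This ratio was picked with the values of both genes known.

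Plaur (ENSMUSG00000046223.9; chromosome 7, 24462484 to 24475968), the urokinase receptor, had 10.7, 7.63 and 7.40 FPKM in Control replicates 0, 1 and 2 and 31.8, 28.3 and 35.4 FPKM in GOF replicates 0, 1 and 2. The lowest GOF library lay well above the highest Control library, replicate 0. The mean went from 8.57 ± 1.84 to 31.8 ± 3.54 FPKM (SD, n = 3 each), or 1.85 on the log2 scale of the edgeR fit (standard error 0.20, adjusted p = 0.00122). It was called higher in all 16 alternatives, with log2 fold changes of 1.72 to 2.04 and adjusted p-values of at most 0.00877. In rank, Plaur moved from above 56.9% of the genes tested in Control to above 83.0% in GOF libraries, whereas Plau moved from above 73.7% to above 83.9%.

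Serpine2 (ENSMUSG00000026249.5; chromosome 1, 79794197 to 79861180) encodes protease nexin-1, an extracellular serpin that inhibits thrombin, urokinase and plasmin. It had 95.5, 129 and 143 FPKM in Control replicates 0, 1 and 2 and 74.0, 76.6 and 66.2 FPKM in GOF replicates 0, 1 and 2. Control replicate 0 was the lowest Control library and still lay above every GOF library, and the GOF libraries were the more alike. Its log2 fold change was -0.77 (standard error 0.16, edgeR adjusted p = 0.0155), from 122 ± 24.3 to 72.3 ± 5.43 FPKM (SD, n = 3 each). The adjusted p from edgeR was over 0.05 without Control replicate 1 (0.0622), Control replicate 2 (0.0560) or GOF replicate 0 (0.0599), with log2 fold changes of -0.91 to -0.66 over all libraries left out.

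Serpinf1 (ENSMUSG00000000753.10; chromosome 11, 75409769 to 75422701) encodes pigment epithelium-derived factor, a secreted serpin without known protease inhibition that restrains vessel growth. It was the most abundant of the 9 genes, with 677, 576 and 630 FPKM in Control replicates 0, 1 and 2 and 481, 537 and 503 FPKM in GOF replicates 0, 1 and 2. Every Control library was above every GOF library, by a narrow margin between Control replicate 1 and GOF replicate 1. The log2 fold change of -0.34 (standard error 0.14, edgeR adjusted p = 0.115) did not pass the test, and it passed in 2 of 16 alternatives, DESeq2 (adjusted p = 0.0332) and limma voom with a correlation within animals (adjusted p = 0.0224).

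Serpinb2 (ENSMUSG00000062345.5; chromosome 1, 107511423 to 107535478) encodes plasminogen activator inhibitor-2, which is mostly kept inside cells. It was close to the limit of detection, with 0.277, 0.234 and 0.197 FPKM in Control replicates 0, 1 and 2 and 0.260, 0.403 and 0.594 FPKM in GOF replicates 0, 1 and 2, from 21 to 57 fragments a library. GOF replicate 0 lay among the Control libraries. The log2 fold change of 0.72 (standard error 0.40, edgeR adjusted p = 0.246) did not pass the test. Exons of Serpinb2 overlap those of Serpinb10 on the same strand, so its few fragments are also uncertain in origin.

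F3 (ENSMUSG00000028128.9; chromosome 3, 121723537 to 121735048), tissue factor, had 354, 411 and 473 FPKM in Control replicates 0, 1 and 2 and 153, 122 and 161 FPKM in GOF replicates 0, 1 and 2. No GOF library came near the lowest Control library, replicate 0. The mean fell from 413 ± 59.4 to 145 ± 20.4 FPKM (SD, n = 3 each), which was -1.51 on the log2 scale of the edgeR fit (standard error 0.15, adjusted p = 8.53e-04). It was called lower in all 16 alternatives, with log2 fold changes of -1.60 to -1.41 and adjusted p-values of at most 0.00814. Even so F3 remained an abundant message, above 98.7% of the genes tested in Control and above 96.3% in GOF libraries.

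Tfpi (ENSMUSG00000027082.10; chromosome 2, 84432855 to 84476775), the inhibitor of the tissue factor and factor VII complex, had 90.4, 78.4 and 74.7 FPKM in Control replicates 0, 1 and 2 and 46.8, 51.1 and 74.0 FPKM in GOF replicates 0, 1 and 2. The groups were separated only by the gap between GOF replicate 2 and Control replicate 2. Its log2 fold change of -0.54 (standard error 0.16, edgeR adjusted p = 0.0538) did not pass the test. It passed in 6 of 16 alternatives, among them with the animal as a block (-0.54, edgeR adjusted p = 0.0466) and without GOF replicate 2 (-0.71, edgeR adjusted p = 0.0169), and the largest adjusted p over all of them was 0.163. In FPKM, the ratio of F3 to Tfpi was 3.92, 5.25 and 6.33 in Control replicates 0, 1 and 2 and 3.26, 2.40 and 2.18 in GOF replicates 0, 1 and 2, a ratio picked with both genes' values known.

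Tfpi2 (ENSMUSG00000029664.8; chromosome 6, 3962595 to 3988919) encodes a matrix-bound Kunitz inhibitor of plasmin and other serine proteases. It had 8.80, 7.44 and 6.05 FPKM in Control replicates 0, 1 and 2 and 6.61, 9.82 and 3.58 FPKM in GOF replicates 0, 1 and 2. The GOF group held both the highest and the lowest library. The log2 fold change of -0.09 (standard error 0.39, edgeR adjusted p = 0.889) turned to 0.07 without Control replicate 0 and to 0.25 without GOF replicate 2. With the animal as a block it was -0.65 (edgeR adjusted p = 0.264).

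**Figure D2:**
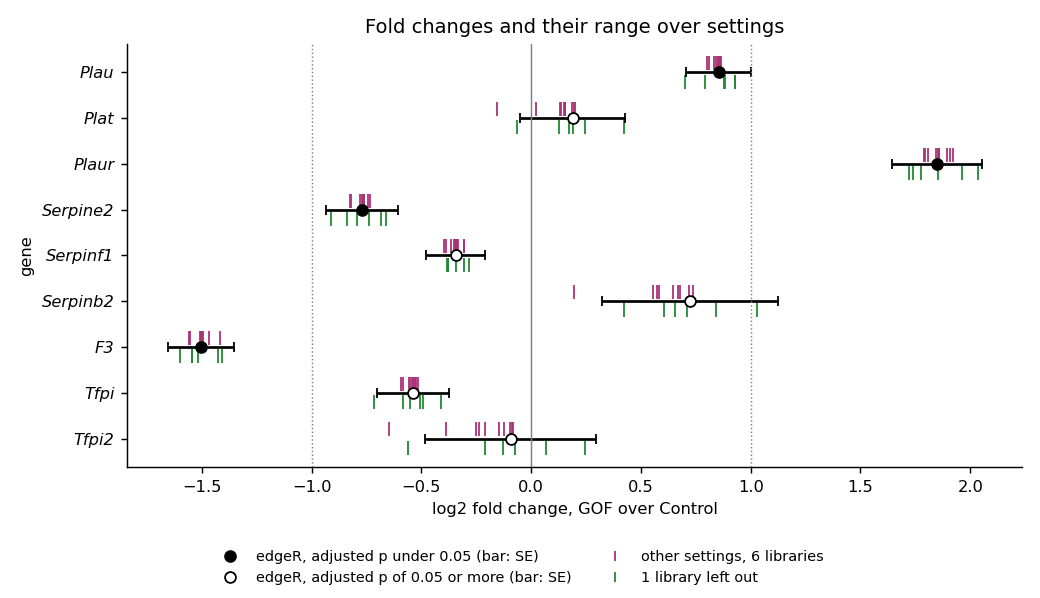
Log2 fold change of GOF over Control (x axis) for each of the 9 genes (y axis) from edgeR, with 1 standard error, filled where the adjusted p was under 0.05, with dotted lines at a fold change of 2. Ticks above each point are the other settings with all 6 libraries and ticks below it leave out 1 library each; those of Plaur stay beyond the line at 1 and those of F3 beyond the line at -1, while those of Plat and Tfpi2 fall on both sides of 0.

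Within the animals that gave both cultures, the ratio of GOF to Control FPKM for Plaur was 4.29 (GOF replicate 0 over Control replicate 2) and 3.31 (GOF replicate 2 over Control replicate 0). For Plau it was 2.11 and 1.60 in the same order. Both genes were higher in the GOF culture of each animal, which follows from groups that did not overlap. F3 had ratios of 0.323 and 0.456, and Serpine2 of 0.518 and 0.692. Those of Serpinf1 were 0.764 and 0.743, and those of Tfpi 0.627 and 0.819. These 4 genes were lower in the GOF culture of each animal, which likewise follows from their separate groups. Plat (1.08 and 0.748) and Tfpi2 (1.09 and 0.407) went in opposite directions in the 2 animals, and the low Serpinb2 had ratios of 1.32 and 2.14. These are values of 1 culture each, with no test.

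**Figure D3:**
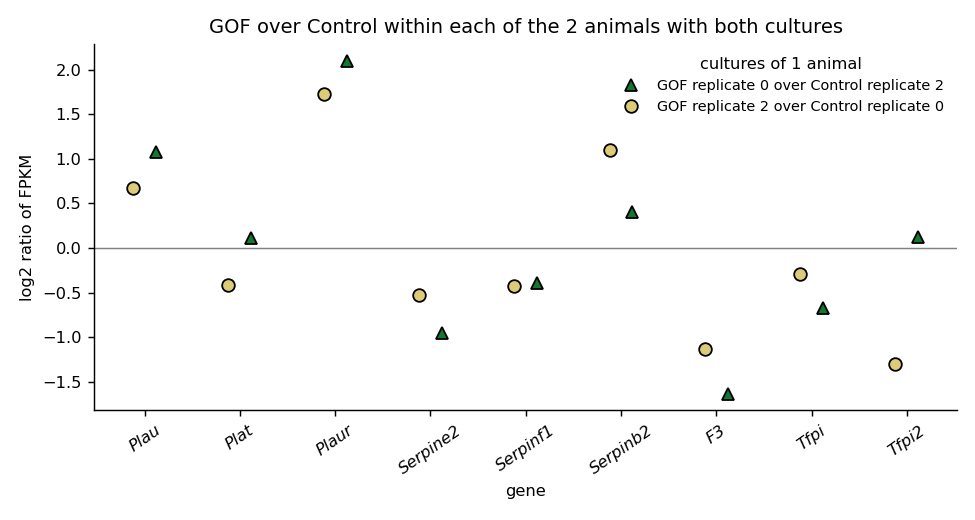
Log2 ratio of FPKM, GOF over Control culture of the same animal (y axis), for each gene (x axis) and each of the 2 animals with both cultures (triangles and circles). Plau, Plaur and Serpinb2 are above 0 in both animals and Serpine2, Serpinf1, F3 and Tfpi below it in both, whereas Plat and Tfpi2 have 1 animal on each side.

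Ordered by FPKM, which is scaled by gene length, Control libraries held Serpinf1, F3, Serpine2, Tfpi, Plat, Plau, Plaur, Tfpi2 and Serpinb2, from high to low. Of these neighbours, the libraries of Plaur and Tfpi2 alone overlapped. In GOF libraries the order was Serpinf1, F3, Serpine2, Plat, Tfpi, Plau, Plaur, Tfpi2 and Serpinb2, and the libraries of Serpine2 and Plat, of Plat and Tfpi, and of Plau and Plaur overlapped. The receptor stood between Plau and Tfpi2 in both groups, and its libraries overlapped those of Tfpi2 in Control and those of Plau in GOF libraries.

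The wider system was described with 83 further genes, of which 82 were found in the table and 42 were tested. Of the 42, 7 were called higher and 5 lower, and 10 rose and 7 fell by the adjusted p alone, with a median log2 fold change of -0.02. Over all genes tested the shares, against which each list can be read, were 12.3% called (6.69% higher and 5.64% lower) and 21.2% by the adjusted p. As many as 48 of the 82 averaged under 1 FPKM, and 10 had no fragment in any library. Among the latter was Plg, the gene of plasminogen itself, so the message of the substrate of both activators was not detected, and a count of 0 in a library allows up to 3 fragments.

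In the plasminogen system, 10 of 19 genes were tested, of which edgeR called 1 higher and 0 lower, while 3 rose and 1 fell by the adjusted p and 3 had lower values at an unadjusted p under 0.05. The median log2 fold change was 0.20. The called gene, St14, encodes the membrane protease matriptase and averaged 0.150 and 0.976 FPKM, a log2 fold change of 2.59 (edgeR adjusted p = 0.0131). Without GOF replicate 0 it was 2.51, with an adjusted p of 0.0513 from edgeR. Anxa2, a cell-surface binding partner of plasminogen and Plat, rose from 373 ± 44.3 to 568 ± 30.0 FPKM (SD, n = 3 each), with an edgeR log2 fold change of 0.58 (adjusted p = 0.0243). It passed the test in 10 of 16 alternatives. With the animal as a block the log2 fold change was 0.52 (edgeR adjusted p = 0.0830), and without Control replicate 1, Control replicate 2, GOF replicate 0 or GOF replicate 1 it was 0.53 to 0.57 (edgeR adjusted p of 0.0699 to 0.117). Its partner S100a10 (0.18, edgeR adjusted p = 0.792) and the plasminogen-binding enolase Eno1 (0.23, edgeR adjusted p = 0.453) did not pass the test.

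Among coagulation factors, 11 of 22 genes in the table were tested, with 2 called higher, 2 lower and a median log2 fold change of -0.16. All 4 were scarce. F5, the cofactor of the enzyme that makes thrombin, had 3 to 122 fragments a library, averaging 0.0164 FPKM in Control and 0.167 in GOF libraries (log2 fold change 3.24, edgeR adjusted p = 0.0142). Control replicates 0, 1 and 2 held 3, 10 and 8 of its fragments. It entered the test through GOF replicates 0, 1 and 2, with 64, 22 and 122. Its log2 fold change was 2.57 without GOF replicate 2 and 3.87 with the animal as a block, and limma did not call it on log2(FPKM + 1) (adjusted p = 0.141) or on log2(FPKM + 0.1) (adjusted p = 0.0687). F13a1, the subunit of the transglutaminase that cross-links fibrin, had 11 to 58 fragments and a log2 fold change of 2.11 (edgeR adjusted p = 0.00304). F8, the cofactor of factor IX, had 162 to 414 fragments and a log2 fold change of -1.05 (edgeR adjusted p = 0.0130), which was -0.98 with the animal as a block, -0.94 without GOF replicate 1 and, with an adjusted p of 0.0582, -0.93 without GOF replicate 0, all under a fold change of 2. Kng2, a kininogen, had 8 to 53 fragments and a log2 fold change of -1.73 (edgeR adjusted p = 0.0303). GOF replicates 0, 1 and 2 held 8, 18 and 10 of its fragments. It entered the test through Control replicates 0, 1 and 2, with 22, 44 and 53. Without Control replicate 1, Control replicate 2, GOF replicate 0 or GOF replicate 2 the log2 fold change was -1.68 to -1.49, with edgeR adjusted p-values of 0.0815 to 0.113. The abundant genes of the list serve the making of clotting factors rather than clotting itself. The log2 fold changes of the cargo receptor subunits Mcfd2 and Lman1 were 0.27 and -0.22 and that of the vitamin K reductase Vkorc1 was -0.16, with edgeR adjusted p-values of 0.135, 0.232 and 0.495.

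The list of anticoagulants and a relative, Gas6, gave 6 tested genes of 10, with 2 called higher, 1 (Gas6) lower and a median of 0.04. Procr, the endothelial protein C receptor, rose from 9.34 ± 1.86 to 27.6 ± 0.669 FPKM (SD, n = 3 each; log2 fold change 1.57, edgeR adjusted p = 0.00175). Anxa5, which covers exposed phosphatidylserine and so shields a clotting surface, rose from 371 ± 42.1 to 1140 ± 361 FPKM (log2 fold change 1.61, edgeR adjusted p = 0.00359), with GOF replicate 2 above the other GOF libraries. Gas6, a vitamin K-dependent ligand of the TAM receptors that is related in sequence to protein S, fell from 285 ± 6.30 to 82.4 ± 24.0 FPKM (log2 fold change -1.83, edgeR adjusted p = 0.00199). These 3 were called in all 16 alternatives. Thrombomodulin (Thbd), the thrombin-binding partner of the Procr pathway, averaged 64.4 ± 9.93 and 69.9 ± 12.3 FPKM, protein S (Pros1) 54.3 ± 7.55 and 55.1 ± 3.40, and the C1 inhibitor Serping1 23.3 ± 7.10 and 23.2 ± 8.44 (SD, n = 3 each). None of these passed the test (edgeR adjusted p = 0.701, 0.902 and 0.936).

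Protease-activated receptors signal when thrombin or other proteases clip them, and 2 of 4 were tested. Neither was called by edgeR, while 1 was higher and 1 lower at an unadjusted p under 0.05. The thrombin receptor F2r had 200, 255 and 205 FPKM in Control replicates 0, 1 and 2 and 120, 124 and 135 FPKM in GOF replicates 0, 1 and 2. Its groups did not overlap, and it fell with a log2 fold change of -0.80 (edgeR adjusted p = 0.00713). F2rl1, the receptor for trypsin-like proteases and the tissue factor complex, averaged 2.17 ± 0.273 and 4.52 ± 1.85 FPKM (SD, n = 3 each), with a log2 fold change of 1.05 (edgeR adjusted p = 0.0638). Without GOF replicate 2, which stood among the Control libraries at 2.39 FPKM, the log2 fold change was 1.37 (edgeR adjusted p = 0.00431).

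Of the other serpins, 13 of 27 were tested, with 2 called higher, 2 lower and a median of -0.31. Serpinb9, the intracellular inhibitor of granzyme B, had 47.2, 47.4 and 38.1 FPKM in Control replicates 0, 1 and 2 and 7.44, 8.70 and 8.16 FPKM in GOF replicates 0, 1 and 2. The groups were far apart, and the log2 fold change was -2.44 (standard error 0.16, edgeR adjusted p = 1.81e-04). Serpina3g, a mouse relative of antichymotrypsin, fell from 3.41 ± 0.524 to 0.969 ± 0.707 FPKM (log2 fold change -2.00, edgeR adjusted p = 0.0127). Both were called in all 16 alternatives, and Serpina3g was at -2.64 without GOF replicate 2, the GOF library with the highest level (1.78 FPKM). Serpinb1b and Serpinb7 averaged at most 1.98 FPKM, with log2 fold changes of 1.67 and 3.17 (edgeR adjusted p = 0.0302 and 0.0301). Serpinb1b was at 1.37 to 1.76 without Control replicates 1 or 2 or any 1 GOF library, with edgeR adjusted p-values of 0.0670 to 0.0899, and at 2.30 without Control replicate 0. Serpinb7 had 8, 13 and 6 fragments in Control replicates 0, 1 and 2. With 41, 26 and 191 in GOF replicates 0, 1 and 2, it entered the test through the GOF libraries. Serpinb7 was at 2.92 to 3.47 without any 1 Control library, with edgeR adjusted p-values of 0.0680 to 0.0895. Without GOF replicate 2, at 2.62 FPKM beside 0.456 and 0.274 in GOF replicates 0 and 1, it was at 1.84 (edgeR adjusted p = 0.0349). Some genes within the Serpina3 family are close copies of each other, as are some within the Serpinb family. Fragments may have been split among such copies in counting. The collagen chaperone Serpinh1 was the most abundant of the list, at 1141 ± 134 FPKM in Control and 790 ± 112 FPKM in GOF libraries (SD, n = 3 each), and its log2 fold change of -0.57 (edgeR adjusted p = 0.0811) did not pass the test. Neither did Serpinb6a (0.32, edgeR adjusted p = 0.353) or Serpinb9b (-0.0059, edgeR adjusted p = 0.992).

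**Figure D4:**
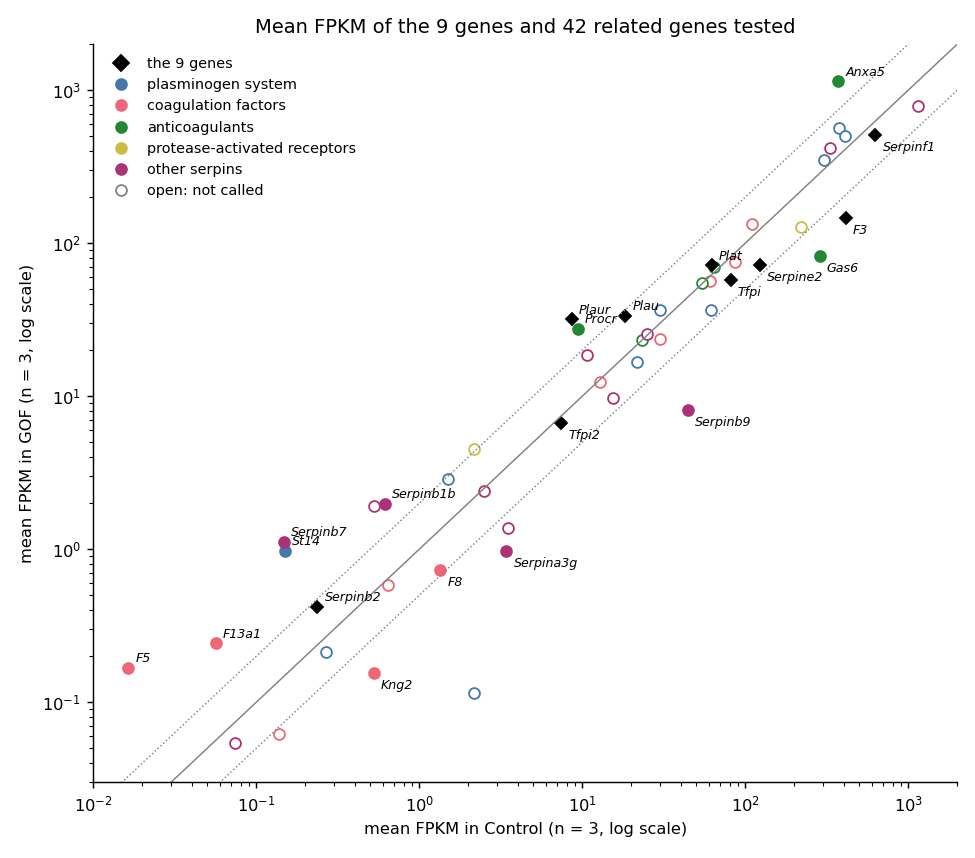
Mean FPKM in GOF (y axis) against Control libraries (x axis), both on log scales and over 3 libraries, for the 9 genes (black diamonds) and 42 related genes (circles coloured by list, filled where called), with the line of equality and dotted lines at a fold change of 2. Anxa5, Procr and Plaur lie above the upper dotted line and F3, Gas6 and Serpinb9 below the lower one, at levels over 8 FPKM, whereas St14, F5, F13a1, Kng2 and Serpinb7 lie at the low end.

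The genes whose pattern over the 6 libraries was nearest to each of the 9 were sought among 12018 genes with a mean of at least 1 FPKM, by the root mean square difference of log2(FPKM + 1) after each gene was centred on its own mean. For Plaur they were Tceal8 (0.0840) and Sgcd (0.103), beside a spread of Plaur itself of 0.912 on this scale. F3 had Col4a1 (0.0810), a chain of the basement membrane collagen, and Bicc1 (0.0896), beside its own spread of 0.768. For Plau they were Itprid2 (0.0458) and Prepl (0.0540), and for Serpine2 Cc2d2a (0.0410) and Gga2 (0.0469). With a spread that mostly followed the groups, such near patterns describe the 6 libraries only. Of the genes that did not pass the test, Plat was nearest to Pkig (0.0470) and Ly6e (0.0650), Tfpi to Kiz (0.0720) and Wbp1 (0.0754), and Serpinf1 to Vps39 (0.0185) and Coasy (0.0238). Tfpi2 had the most distant neighbours, Adm2 (0.140) and Tmem176a (0.150), and Serpinb2, nearly flat on this scale, had Rhot1 (0.0232) and Dis3 (0.0246).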

How the data were processed

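RNA-seq was performed on 6 cultures, 3 Control and 3 GOF. Libraries were stranded and paired-end. The authors aligned them with TopHat to mm10 and estimated expression with Cuffdiff; whether the counting used the strand is not given in the sources used here. The estimated counts are the fragments that the authors deposited per gene and library before scaling. The FPKM values were deposited by the authors after Cuffdiff scaled fragments by transcript length and between libraries. Another 6 columns of per-library values, counted over this gene table and the lncRNA table together, were not used here. No value of the lncRNA table was used. Of the 41126 genes, 97.9% matched a symbol in GENCODE M21, and 32 whose estimate failed were left out, none of them named here.

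Estimated counts (4.95% not whole) were rounded and fitted in R 4.3.3 with edgeR 4.0.16 (filterByExpr, TMM normalization, quasi-likelihood test, Benjamini-Hochberg adjustment over all genes tested). Calls needed both an adjusted p below 0.05 and a fold change over 2. Single values were compared on FPKM with two-sided exact permutation tests (SciPy 1.17.1). p-values measure the spread between these cultures. The main edgeR fit treated the cultures as independent and had no term for animal, although 2 animals gave a culture to each group. The script was tested on simulated data. Coordinates and promoters came from GENCODE M21 and RefSeq, both on GRCm38. RefSeq windows were matched by symbol for 7 of the 9 genes.

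The 16 alternatives were DESeq2 1.42.0, library totals, upper-quartile normalization, no filter, a minimum FPKM of 1 in 3 libraries, limma 3.58.1 on log2(FPKM + 1) and log2(FPKM + 0.1), a replicate block (by the number in the label, or by animal), each library left out, and, chosen after seeing the data, limma voom with a correlation within animals. Animals are named in the sample titles. Correlations of the deviations from the group means were 0.408 and 0.460 between cultures of 1 animal. Between cultures of 1 number they were -0.410, 0.0539 and -0.441. Deviations from a mean of 3 libraries constrain one another, so these correlations are a description. The pairing by animal rests on the titles.

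The 9 genes and all lists were chosen with earlier results of these data known. Named were the 9 genes, called genes of the lists, up to 3 abundant uncalled genes a list, and the 2 genes nearest in pattern. The lists and their counts leave out 1 gene, which is not reported here. The ratios and sequence words were chosen after values were seen.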

Additional observations from a re-analysis of the deposited data

How the results depend on the processing

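The count of 2 called genes among the 9 was the same in all 16 alternatives, and 6 of the 9 were also separate between groups on TMM-normalized CPM. Of the related genes 12 were called, and 7 with a minimum FPKM of 1 in 3 libraries (which tests fewer genes), 5 with limma on log2(FPKM + 1), which understates changes of low genes, 17 with no filter on low counts and 9 to 14 with 1 library left out. Over all genes 1906 were called, 877 with limma on log2(FPKM + 1) and 1311 to 1961 with 1 library left out. Log2 fold changes that turned sign were all of genes that did not pass the test, and the cause was not tested. With the replicate block by animal, which leaves 1 residual degree of freedom, that of Plat was -0.16, Pros1 0.022 and Serpinb9b 0.079; the block kept 2 calls among the 9 genes and gave 14 among the related genes and 2008 over all. With the replicate block by label number the counts were 2, 9 and 1421, Serpinb9b was at 0.015, and the adjusted p of Serpine2, Anxa2, Kng2, Serpinb1b and Serpinb7 was over 0.05. Pros1 was at 0.028 and 0.029 with limma on log2(FPKM + 1) and log2(FPKM + 0.1). Serpinb9b was at 0.0038 with DESeq2, 0.0045 with the minimum FPKM, 0.021 and 0.022 with limma on log2(FPKM + 1) and log2(FPKM + 0.1), and 0.046 with the correlation within animals. With 1 library left out, Plat ranged from -0.0645 to 0.42, Tfpi2 from -0.56 to 0.25, S100a10 from -0.28 to 0.65, Thbd from -0.0084 to 0.24, Pros1 from -0.13 to 0.028, Serpinb9b from -0.30 to 0.38 and Serping1 from -0.29 to 0.22. Scaling moved the median over all genes by 0.054 at most in size (upper quartile, to -0.07). At the few fragments a library of Serpinb2 (at most 57), F13a1 (58) and Kng2 (53), counting error limits what can be read.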
